A study of Mus musculus with 6 samples.

Results

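Respiratory complex I, the NADH:ubiquinone oxidoreductase of the inner mitochondrial membrane, was followed through 56 of the 55011 gene symbols of a count table from mouse visceral fat. The 56 are all symbols that begin with Nduf, pseudogene symbols ending in -ps aside, or with mt-Nd. They comprise 7 core subunits encoded in the nucleus, 29 supernumerary nuclear subunits, 8 assembly factors named Ndufaf, 7 subunits encoded by mitochondrial DNA and 5 further Nduf-named genes. Those 5 are Ndufa4 and its paralog Ndufa4l2, and Ndufa11b, Ndufb4c and Ndufs6b, copies of subunit genes.

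Complex I takes electrons from NADH, passes them along iron–sulfur clusters to ubiquinone and pumps protons across the inner membrane. Its N module holds the NADH site, its Q module the ubiquinone site, and its membrane arm the proton channels, which mitochondrial DNA encodes. Subunits come from both genomes and are joined stepwise by assembly factors that are not kept in the finished enzyme. In fat, complex I supplies the respiratory chain of adipocytes, and every nucleated cell type of the depot expresses it.

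The samples were whole visceral fat of C57BL/6 males aged 30 weeks, after 14 weeks on a low-fat and 16 weeks on a high-fat diet, collected at zeitgeber time 0 h. Strain labels of both groups name the driver Foxp3.Cre-YFP, a Cre recombinase with a YFP tag under Foxp3, whose product specifies regulatory T cells. The 3 Bmal1WT samples are labelled wild type and the 3 Bmal1KO samples knockout for Bmal1 (gene symbol Arntl), a core transcription factor of the circadian clock. A Foxp3 driver acts in regulatory T cells, a small part of the cells in fat, whereas RNA was taken from the whole tissue. The labels do not say whether numbered samples of a group came from separate mice, and each p-value reflects only how far these libraries differ, which may be technical.

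Counts per library ran from 6514620 to 9529198. Arntl had 33.2 ± 6.16 CPM in Bmal1WT against 40.1 ± 8.06 CPM in Bmal1KO (counts scaled to library size by TMM; SD, n = 3), with an edgeR adjusted p of 0.719. Foxp3 had 0 counts in each Bmal1WT library and 3, 0 and 2 in Bmal1KO, so the whole-tissue counts do not check the label of a deletion in Foxp3-expressing cells. A library stood apart in each group: Bmal1WT replicate 1 held 4289 counts of 12 epididymis and testis genes against 2 to 29 in the others, and Bmal1KO replicate 1 had 30019 genes with a count against 19009 to 20145. The adipocyte markers Adipoq, Fabp4 and Cidec had at least 1953 CPM in all 6 libraries, and Plin1 had 89.3 to 179 CPM. After Benjamini-Hochberg adjustment, edgeR's quasi-likelihood test passed 0 of 13859 genes at 0.05 (0%), and the smallest adjusted p was 0.265. Before adjustment, 1290 genes (9.31%) had a p under 0.05. By other tools, limma voom called 0 genes and DESeq2 called 60, none of them a complex I gene.

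Of the 56 complex I genes, 51 had enough counts for the test and 0 passed it. Nuclear subunits had small negative estimates with few exceptions, while the Ndufaf assembly factors lay on both sides of 0. Among the 36 nuclear subunits, 32 had a lower estimate in Bmal1KO, with a median log2 fold change (Bmal1KO minus Bmal1WT) of -0.14. Leaving out Bmal1KO replicate 3 made this 25 of 36 (median -0.063), and leaving out Bmal1WT replicate 2 made it 26 of 36 (median -0.084). Over all 13859 genes tested, 48% had a negative estimate and the median was 0.02. Estimates of the Ndufaf genes were negative for 3 of 8 (median 0.04), and those of the mitochondrially encoded subunits for 3 of 5 (median -0.07). The estimates of subunits in 1 tissue are not independent of each other, and these counts carry no test.

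**Figure D1:**
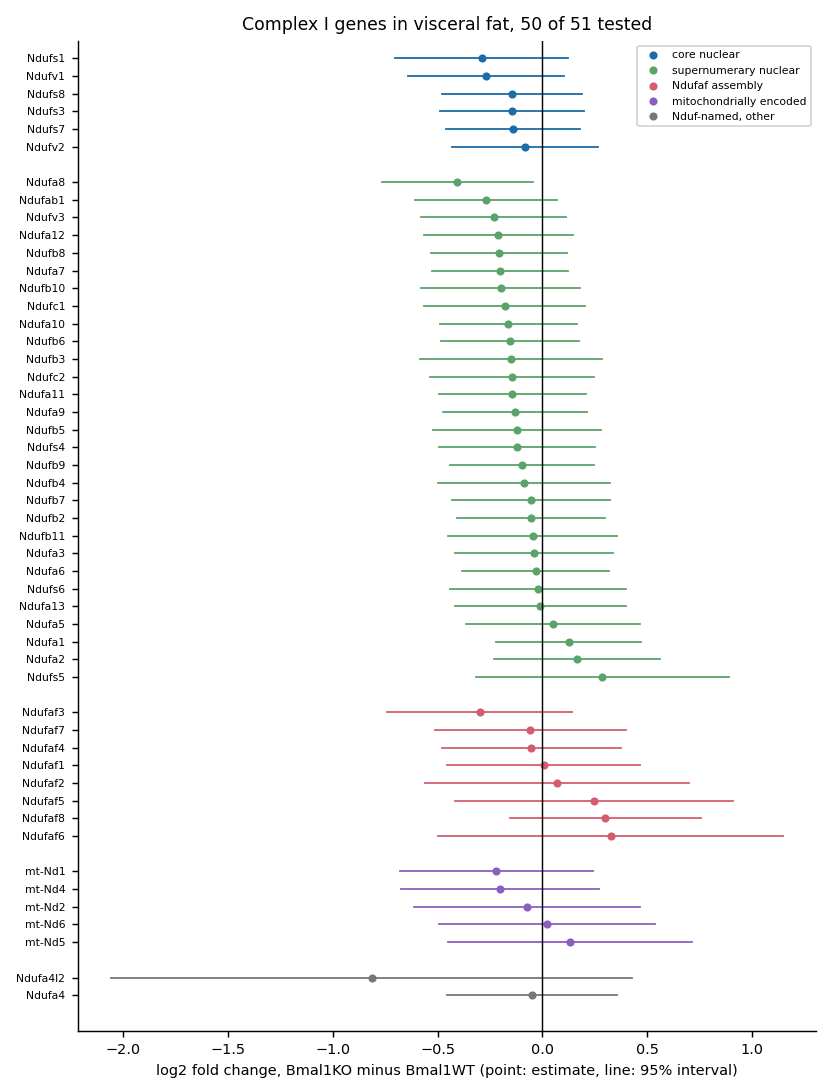
Log2 fold change (x axis, Bmal1KO minus Bmal1WT, 3 libraries each) of 50 of the 51 complex I genes tested, grouped by class; points are edgeR estimates and lines are 95% intervals. Of the 35 nuclear subunits plotted 31 lie left of 0, and only the line of Ndufa8 lies wholly to one side of it.

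The precision was moderate. Standard errors of the 51 log2 fold changes ran from 0.14 to 0.56 with a median of 0.18, and 34 of the 51 estimates were smaller than their own standard error. Only Ndufa8 exceeded 2 standard errors. For 49 of the 51 genes the 95% interval lay within a 2-fold change in either direction, so larger differences were outside the interval for these genes, whereas differences near the medians above were not detectable one gene at a time.

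The 7 core nuclear subunits, which carry the flavin and the iron–sulfur clusters and are conserved from bacteria, all had negative estimates, from -0.29 to -0.08. Their summed level was 1567, 1537 and 1463 CPM in Bmal1WT replicates 1 to 3 and 1428, 1374 and 1257 CPM in Bmal1KO. On this TMM scale every Bmal1KO library was below every Bmal1WT library. The means, 1522 ± 53.6 and 1353 ± 87.1 CPM (SD, n = 3), differed by -11.1%. The sum over all genes tested itself differed by -6.33% on this scale, a value to set beside every class sum given here. It is not the change of a typical gene, as the median log2 fold change over all genes was 0.02. When libraries were scaled by their totals alone, the log2 ratio of the core sums was -0.08. Of the 7 estimates 6 were then negative, against 38.5% of all genes tested. The groups then overlapped, as Bmal1KO replicate 1 (9494 of 6443359 counts of tested genes) lay above Bmal1WT replicate 3 (13597 of 9503529).

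Ndufv1, at the NADH site and holding the flavin, measured 253, 283 and 301 CPM in Bmal1WT and 260, 243 and 191 CPM in Bmal1KO. The groups overlapped through Bmal1WT replicate 1 and Bmal1KO replicate 1, and the log2 fold change was -0.27 (SE 0.17, edgeR adjusted p = 0.635). Ndufs1, the largest iron–sulfur subunit, measured 189, 154 and 153 CPM against 167, 110 and 128 CPM, again with overlap (log2 fold change -0.29, SE 0.19, edgeR adjusted p = 0.651). The Ndufv1 estimate was -0.16 without Bmal1KO replicate 3, and that of Ndufs1 ranged from -0.47 (without Bmal1KO replicate 1) to -0.17 (without Bmal1KO replicate 2). Ndufs3, Ndufs7 and Ndufs8 of the Q module and Ndufv2 of the N module overlapped between groups. Their estimates were -0.14, -0.14, -0.15 and -0.08, with SE of 0.16, 0.15, 0.15 and 0.16 and edgeR adjusted p of 0.796, 0.789, 0.787 and 0.893.

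The supernumerary subunits surround the core and stabilise it, and 25 of 29 had a negative estimate (median -0.12, range -0.41 to 0.29). Without Bmal1KO replicate 3 the count was 18 (median -0.027), and without Bmal1WT replicate 2 it was 20 (median -0.051). With library totals alone as the scale it was 17 (median -0.027). On that scale 38.5% of all genes tested were negative and their median was 0.11. Summed, they reached 5670, 5696 and 4726 CPM in Bmal1WT and 5035, 5503 and 4451 CPM in Bmal1KO. Replicate 3 was the lowest library of each group, the groups overlapped, and the means of 5364 ± 553 and 4996 ± 527 CPM (SD, n = 3) differed by less than the spread. Ndufa8, Ndufab1, Ndufb8, Ndufv3, Ndufa7 and Ndufa10 had all Bmal1KO values below all Bmal1WT values. These are 6 of the 29, against 7.85% of all genes tested, and 0 of the 29 were separated in the other direction, against 7.83%.

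Ndufa8, a subunit on the intermembrane-space side of the membrane arm, had the smallest p of the 51 genes. It measured 241, 220 and 189 CPM in Bmal1WT and 171, 177 and 143 CPM in Bmal1KO. The 2 groups did not overlap, with means of 217 ± 26.0 and 164 ± 17.9 CPM (SD, n = 3). The log2 fold change was -0.41 (SE 0.16, 95% interval -0.77 to -0.05), with an unadjusted p of 0.0301 and an edgeR adjusted p of 0.479 over all genes. Ndufa8 is on chromosome 2 at 36036326 to 36049406 (mm10, minus strand).

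Ndufab1, the mitochondrial acyl carrier protein and also a structural subunit, measured 111, 100.4 and 100.1 CPM in Bmal1WT and 94.0, 86.3 and 78.3 CPM in Bmal1KO. Its groups were narrow and apart, with a log2 fold change of -0.27 (SE 0.15, edgeR adjusted p = 0.611). Ndufv3, a small subunit of the N module, measured 278, 277 and 262 CPM against 251, 248 and 197 CPM, the lowest in Bmal1KO replicate 3 (log2 fold change -0.23, SE 0.16, edgeR adjusted p = 0.661). Ndufb8, in the membrane arm, measured 324, 321 and 313 CPM against 285, 294 and 252 CPM (log2 fold change -0.21, SE 0.15, edgeR adjusted p = 0.679). In both of these genes the Bmal1WT libraries lay close together and the Bmal1KO libraries spread further down.

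Negative estimates were found in each structural region. They held for 7 of 8 nuclear subunits of the N module (median -0.17), 5 of 6 of the Q module (median -0.14) and 20 of 22 outside both (median -0.13). The 4 supernumerary subunits with positive estimates were Ndufs5, Ndufa2, Ndufa1 and Ndufa5. Ndufs4, whose loss in mice causes a fatal encephalopathy, had a log2 fold change of -0.12 with overlapping groups, and Ndufa13, also known as GRIM-19, had -0.01.

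The sequence upstream of 3 of these genes is shown to place motifs of factors known to act on genes of respiration or of the clock. Windows of 250 bases before to 50 bases after the transcription start, from RefSeq (GRCm38.p6), were matched for 40 of the 49 nuclear members. Capitals mark the NRF1 letters (GCGC, A, any base and GCGC in a row), which lie on the opposite strand and so read here as GCGC, any base, T and GCGC, in Ndufa8 at chr2:36049289-36049588, minus strand; the E-box CACGTG, the letters bound by BMAL1 with CLOCK, in Ndufv1 at chr19:4012706-4013005, minus strand; and CCGGAAG (ETS family) followed further on by AAGATG joined to GCGGC (YY1) in Ndufaf8 at chr11:120098684-120098983, plus strand.
Ndufa8: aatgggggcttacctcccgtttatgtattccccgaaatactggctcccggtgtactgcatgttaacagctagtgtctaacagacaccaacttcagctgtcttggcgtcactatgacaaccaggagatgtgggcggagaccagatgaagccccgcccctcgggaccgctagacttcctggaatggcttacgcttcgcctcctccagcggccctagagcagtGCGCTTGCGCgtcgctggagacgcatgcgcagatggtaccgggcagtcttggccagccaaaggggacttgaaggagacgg
Ndufv1: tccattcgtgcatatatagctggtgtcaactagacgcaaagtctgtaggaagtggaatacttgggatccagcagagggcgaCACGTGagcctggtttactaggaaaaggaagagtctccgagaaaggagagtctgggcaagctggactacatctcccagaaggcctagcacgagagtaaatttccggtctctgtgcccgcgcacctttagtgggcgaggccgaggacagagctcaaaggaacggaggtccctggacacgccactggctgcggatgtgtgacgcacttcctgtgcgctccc
Ndufaf8: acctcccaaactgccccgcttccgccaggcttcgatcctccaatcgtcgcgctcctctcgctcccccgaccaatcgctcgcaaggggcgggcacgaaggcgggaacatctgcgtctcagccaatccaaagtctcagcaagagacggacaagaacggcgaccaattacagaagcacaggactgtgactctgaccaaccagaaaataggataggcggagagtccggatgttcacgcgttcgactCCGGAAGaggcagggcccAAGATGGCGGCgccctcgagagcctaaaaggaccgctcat
Searched on both strands, the E-box was present in 2 of the 40 windows (5%), Ndufa7 and Ndufv1, and in 7.24% of 27025 promoters of the same length. The NRF1 letters were in 9 windows (22.5%) against 4.78% of all promoters, and the YY1 letters in 5 (12.5%) against 0.699%. The ETS letters were in 6 (15%) against 9.12%, and TCAAGGTCA, the letters of the oestrogen-related receptors, in 0 against 0.407%. Ndufv1, with the E-box at -169, and Ndufa7, with one at -72, had log2 fold changes of -0.27 and -0.20. Estimates were negative for 32 of the 36 nuclear subunits, and a link between motif and estimate was not tested. A match is a run of letters and not a site shown to be bound.

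Many of the nuclear genes share their start region with a neighbour. Of the 46 nuclear members annotated as protein-coding, 18 (39.1%) had the start of another protein-coding gene on the opposite strand, head to head, within 1000 bp or overlapping by up to 300 bp, against 8.66% of 21938 such genes. Both genes were tested in 16 pairs, of which 8 had estimates of the same sign and 8 of opposite signs. Ndufs1, for example, starts 8 bp inside the start of Eef1b2, a translation elongation factor, which measured 287 ± 26.6 against 390 ± 53.8 CPM (Bmal1WT, then Bmal1KO; SD, n = 3). The Eef1b2 estimate was 0.44 (SE 0.17, edgeR adjusted p = 0.475), of the opposite sign to that of Ndufs1, and its groups did not overlap. Ndufa7, with an estimate of -0.20, starts 10 bp from Rps28, a ribosomal protein gene with 0.45. Ndufs6 and its neighbour Mrpl36, a mitochondrial ribosomal protein gene, had -0.02 and -0.26.

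Exons of 25 of the 56 members overlap those of another gene, and the library does not mark the strand, so such reads cannot be assigned with certainty. The longest overlap of a nuclear subunit with a protein-coding gene was 616 bp, between Ndufb5 and Mrpl47. Ndufa8, Ndufv1, Ndufv3 and Ndufa7 had no exon overlap in GENCODE M21, whereas Ndufb8 shared 134 bp with Gm20538 and Ndufab1 269 bp with Gm44986.

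Ndufs5 is a subunit at the intermembrane-space side of the membrane arm and has a pseudogene with a row of its own in the table. Its counts were 502, 304 and 247 in Bmal1WT and 354, 479 and 308 in Bmal1KO, and the estimate was 0.29 (SE 0.27, edgeR adjusted p = 0.770), and it was 0.066 when Bmal1WT replicate 3 was left out and 0.65 when Bmal1WT replicate 1 was. The symbol Ndufs5-ps, which RefSeq lists as a transcribed pseudogene on chromosome 16, had 12, 320 and 263 counts in Bmal1WT and 13, 18 and 19 in Bmal1KO. In Bmal1WT replicates 2 and 3 the pseudogene took 51.3% and 51.6% of the counts of the pair, and in the other 4 libraries 2.33% to 5.81%. The pair summed to 58.6, 73.1 and 54.9 CPM in Bmal1WT and 55.2, 56.3 and 40.6 CPM in Bmal1KO, which overlapped. With the counts summed, a setting chosen after seeing the data, the log2 fold change turned to -0.30 (SE 0.20). How reads with several matches were counted is not given in the sources used here, and whether the pseudogene counts are reads of Ndufs5 was not tested.

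**Figure D2:**
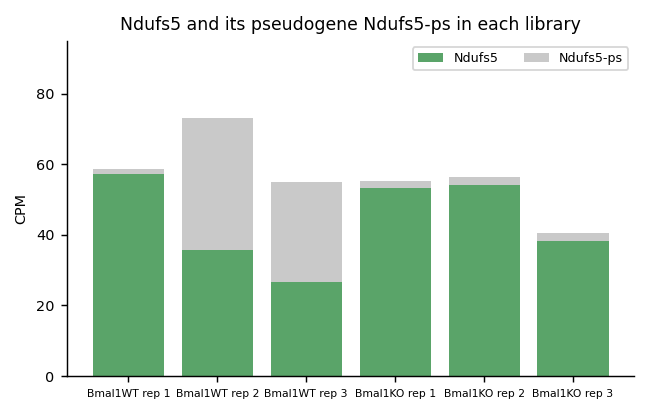
Level in CPM (y axis from 0) of Ndufs5 (green) and Ndufs5-ps (grey), stacked, in each of the 6 libraries. Bmal1WT replicates 2 and 3 are split about evenly, with pseudogene shares of 51.3% and 51.6%, and the other 4 bars are almost entirely Ndufs5.

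The mitochondrially encoded subunits form the membrane-embedded core of the proton pump, and their level separated the Bmal1KO libraries from each other more than from Bmal1WT. The 7 genes summed to 12165, 12097 and 11278 CPM in Bmal1WT and to 13809, 9213 and 9110 CPM in Bmal1KO. Bmal1KO replicate 1 was the highest of the 6 libraries, and replicates 2 and 3 were the lowest. The means were 11847 ± 494 and 10710 ± 2684 CPM (SD, n = 3), a difference smaller than the Bmal1KO spread. Per unit of summed nuclear subunits, the mitochondrially encoded sum was 1.68, 1.67 and 1.82 in Bmal1WT and 2.14, 1.34 and 1.60 in Bmal1KO, which overlapped.

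mt-Nd1, the first gene of the series in the mitochondrial genome, had 71979, 67761 and 65146 counts in Bmal1WT and 53571, 52539 and 47433 in Bmal1KO. Scaled, these were 8211, 7940 and 7010 CPM against 8055, 5950 and 5885 CPM, so the groups were apart in raw counts, where Bmal1KO libraries have smaller totals, and overlapped in CPM through Bmal1KO replicate 1. The log2 fold change was -0.22 (SE 0.21, edgeR adjusted p = 0.768). mt-Nd5, the largest of the pump subunits, measured 1609, 1937 and 2212 CPM against 3054, 1608 and 1647 CPM (log2 fold change 0.13, SE 0.26, edgeR adjusted p = 0.896). Its estimate rested on Bmal1KO replicate 1, without which it was -0.24. mt-Nd4, mt-Nd2 and mt-Nd6 had log2 fold changes of -0.20, -0.07 and 0.02 (SE 0.22, 0.24 and 0.23) with edgeR adjusted p of 0.795, 0.945 and 0.981. Each was highest in Bmal1KO replicate 1 and lowest in Bmal1KO replicate 3. Without Bmal1KO replicate 1 the median of the 5 tested genes was -0.39 in place of -0.07, and all 5 estimates were negative.

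The counts were unequal along the mitochondrial genome. mt-Nd1 made up 58.3% to 67.5% of all mt-Nd counts, while mt-Nd3 had 6, 12 and 9 counts in Bmal1WT and 7, 7 and 1 in Bmal1KO, and mt-Nd4l had 5, 4 and 13 against 6, 10 and 5. Both stayed under the filter on low counts and were not tested. The near absence of mt-Nd4l counts stands beside 9088 to 14882 counts of mt-Nd4, with which it shares a transcript. The end of mt-Nd4l at chrM:10114-10173 and the beginning of mt-Nd4 at chrM:10167-10226 (mm10, plus strand) are shown because their reading frames overlap by 7 bases, in capitals.
mt-Nd4l: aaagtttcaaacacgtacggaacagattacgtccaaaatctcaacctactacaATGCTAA
mt-Nd4: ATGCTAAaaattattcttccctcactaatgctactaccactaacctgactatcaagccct
The reverse transcription started from an oligo(dT) primer and how reads over 2 genes were counted is not given, so a count of a gene need not give the amount of its transcript. Between libraries, the ratio of mt-Nd4 to mt-Nd1 counts kept between 0.192 and 0.227. That of mt-Nd5 to mt-Nd1 was 0.196, 0.244 and 0.316 in Bmal1WT and 0.379, 0.270 and 0.280 in Bmal1KO, with overlap and the highest value in Bmal1KO replicate 1.

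**Figure D3:**
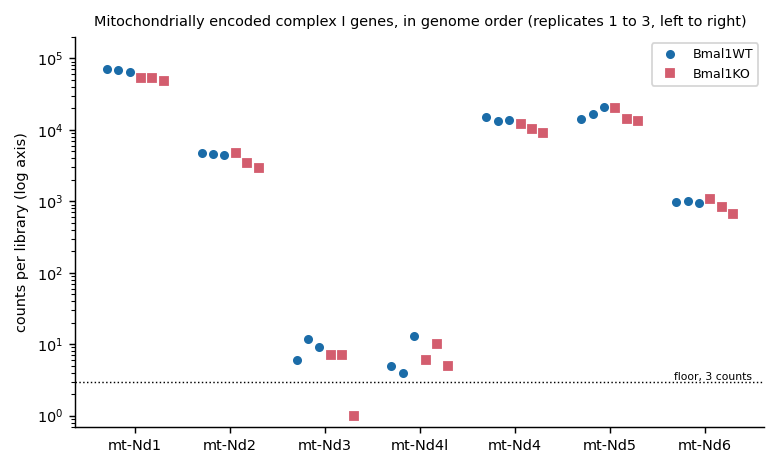
Counts per library (log y axis) of the 7 mitochondrially encoded subunits, in genome order, for Bmal1WT and Bmal1KO replicates 1 to 3; the dotted line is the floor of 3 counts. mt-Nd1 has at least 47433 counts in every library, while mt-Nd3 and mt-Nd4l have at most 13.

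The 8 Ndufaf assembly factors bind assembly intermediates and are not part of the finished enzyme. Summed, they gave 242, 239 and 219 CPM in Bmal1WT and 229, 253 and 232 CPM in Bmal1KO, or 233 ± 12.7 and 238 ± 12.9 CPM (SD, n = 3), a difference smaller than the spread. None of the 8 was separated between groups, against 7.85% of all genes tested with Bmal1KO lower and 7.83% with it higher. Ndufaf3, which acts with Ndufaf4 on the Q module, measured 48.7, 57.4 and 37.8 CPM against 37.4, 36.4 and 43.1 CPM (log2 fold change -0.30, SE 0.20, edgeR adjusted p = 0.659), and the estimate was -0.15 without Bmal1WT replicate 2. Ndufaf4 had a log2 fold change of -0.05. Ndufaf8, the partner of the methylase-fold factor Ndufaf5, measured 52.2, 51.2 and 43.5 CPM against 48.6, 77.7 and 54.6 CPM. Its estimate of 0.30 (SE 0.21, edgeR adjusted p = 0.663) drew on Bmal1KO replicate 2, without which it was 0.069, and Ndufaf5 had 0.25. Ndufaf6 was the scarcest, at 6.58 ± 1.52 and 8.25 ± 2.39 CPM (SD, n = 3), with 0.33 (SE 0.37, edgeR adjusted p = 0.806), and from 0.099 without Bmal1KO replicate 3 to 0.53 without Bmal1WT replicate 2. Ndufaf1 of the membrane-arm assembly complex, Ndufaf2 of the late N-module step and Ndufaf7, a methyltransferase, had 0.01, 0.07 and -0.06.

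Further assembly factors do not carry the Ndufaf name. Of 10 tested, 10 had a negative estimate, with a median of -0.32. Their sum was 522, 532 and 484 CPM in Bmal1WT and 440, 422 and 382 CPM in Bmal1KO, without overlap, or 513 ± 25.3 and 415 ± 29.9 CPM (SD, n = 3). Tmem70, which acts in the assembly of ATP synthase as well as of complex I, had 873, 864 and 913 counts in Bmal1WT and 509, 645 and 515 in Bmal1KO. At 99.7 ± 1.5 and 71.2 ± 6.52 CPM (SD, n = 3) it was the most separated of them, with a log2 fold change of -0.49 (SE 0.15) and an unadjusted p of 0.00911, and it did not pass (edgeR adjusted p = 0.418). Nubpl, which delivers iron–sulfur clusters to complex I, measured 16.8 ± 1.48 and 12.5 ± 1.26 CPM (SD, n = 3) with no overlap (log2 fold change -0.43, SE 0.25, edgeR adjusted p = 0.619). Ecsit and Acad9, which work beside Ndufaf1, had -0.36 and -0.37 with overlapping groups. No test of the difference between the 2 sets of assembly factors was made.

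**Figure D4:**
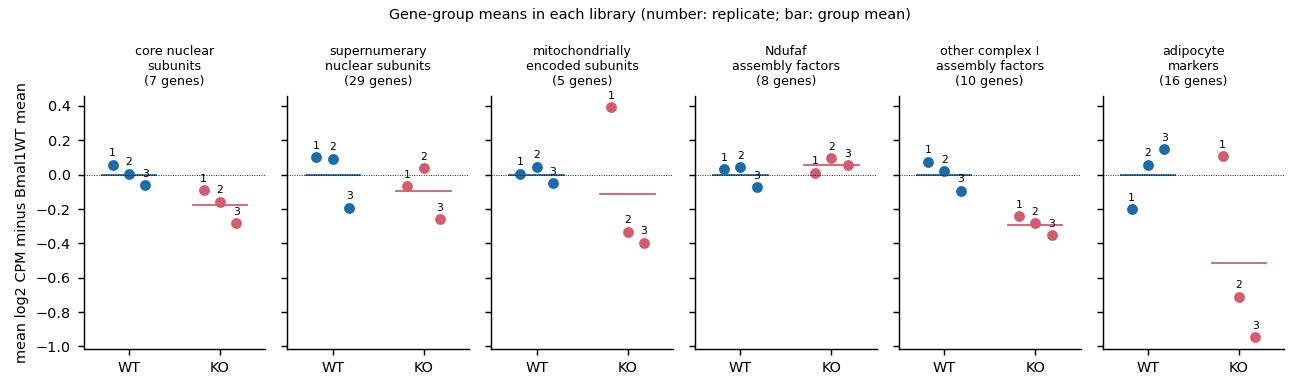
Mean log2 CPM (TMM scaling) of each gene group in each library, minus the Bmal1WT mean (y axis), with replicate numbers above the points and bars at group means. The core subunits and the other assembly factors have all 3 Bmal1KO points below the Bmal1WT points, whereas the mitochondrially encoded subunits and adipocyte markers split Bmal1KO replicate 1 from replicates 2 and 3.

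Ndufa4 carries a complex I name but has been assigned to cytochrome c oxidase, and it measured 551 ± 83.7 CPM in Bmal1WT and 532 ± 77.9 CPM in Bmal1KO (SD, n = 3). Its log2 fold change was -0.05 (SE 0.18, edgeR adjusted p = 0.949), and its sign turned under 1 of the scalings, library totals alone (0.04). Ndufa4l2, a paralog known as a target of hypoxia-inducible factor 1, had 79, 56 and 126 counts in Bmal1WT and 74, 30 and 18 in Bmal1KO. In CPM these were 9.01, 6.56 and 13.6 against 11.1, 3.40 and 2.23, so replicate 1 of Bmal1KO lay within the Bmal1WT range and the other 2 below it. The log2 fold change of -0.82 was the largest in size among the 51 genes and also the least precise (SE 0.56, 95% interval -2.06 to 0.43, edgeR adjusted p = 0.668). Without Bmal1KO replicate 1 the estimate was -1.79, and without Bmal1KO replicate 3 or Bmal1WT replicate 3 it was -0.44 or -0.50. Mural cells express Ndufa4l2 in mice, and their markers were likewise highest within Bmal1KO in replicate 1. The mural markers' mean log2 deviation was -0.18, -0.15 and 0.33 in Bmal1WT and 0.07, -1.09 and -0.55 in Bmal1KO, and 8 of the 9 tested had negative estimates. Within Bmal1KO, markers of adipocytes (0.11, -0.71 and -0.95) and blood endothelium (-0.16, -0.92 and -0.88) were also highest in replicate 1. Those of macrophages, T cells and mesothelium were not. The part of any of these markers in the Ndufa4l2 values was not tested. Ndufa11b, Ndufb4c and Ndufs6b had at most 6 counts in any library and were not tested.

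Per kilobase of transcript, averaged over the 6 libraries, the core subunits ranged from 56.4 CPM per kb (Ndufs1) to 194 CPM per kb (Ndufs7), with a median of 154. Supernumerary subunits ranged from 19.0 (Ndufb2) to 610 CPM per kb (Ndufa2) with a median of 178, although products of this class are present once per complex, apart from Ndufab1. The lowest members, Ndufb2 and Ndufab1, are also those with the longest transcripts of the class in the annotation, 4371 and 3479 bases. Ndufaf genes lay between 6.85 (Ndufaf6) and 69.9 CPM per kb (Ndufaf8), with a median of 20.4. The 5 tested mitochondrially encoded genes ran in the order mt-Nd6, mt-Nd2, mt-Nd4, mt-Nd5 and mt-Nd1, from 214 to 7498 CPM per kb. mt-Nd4 at 1072 and mt-Nd5 at 1103 CPM per kb did not differ beyond their spread, and among the core subunits neither did Ndufs3, Ndufv2 and Ndufv1, at 137, 146 and 154 CPM per kb.

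**Figure D5:**
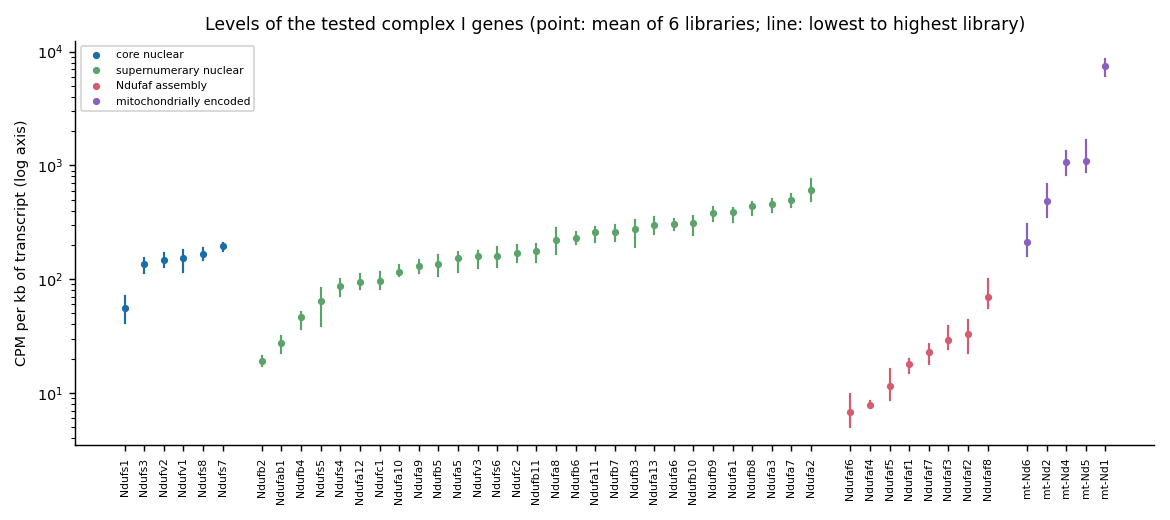
Level in CPM per kb of transcript (log y axis) of 48 tested genes in 4 classes; points are means of 6 libraries and lines run from the lowest to the highest library. The Ndufaf genes (median 20.4) lie below most nuclear subunits (medians 154 and 178), and mt-Nd1 reaches 7498.

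Other parts of the respiratory chain gave a frame for these values. Of nuclear genes of complex II, 7 of 8 tested had negative estimates (median -0.17), of complex III 8 of 9 (median -0.10), of ATP synthase 10 of 15 (median -0.09) and of complex IV 5 of 10 (median 0.00). Mitochondrial ribosomal proteins, which translate the mt-Nd transcripts, were negative in 63 of 77 (median -0.13), and 11 of the 77 had all Bmal1KO libraries below Bmal1WT and 0 all above, against 7.85% and 7.83% of all genes tested. For nuclear genes of the complexes, Bmal1KO was wholly below in 1 of 8 (II), 2 of 9 (III), 2 of 15 (ATP synthase) and 0 of 10 (IV). The reverse held for 0 of these genes. Sdha of complex II and Uqcrc1 of complex III had the smallest p of their lists. Sdha measured 638 ± 18 and 516 ± 30.1 CPM, and Uqcrc1 598 ± 5.90 and 462 ± 27.0 CPM (SD, n = 3), both without overlap. Their log2 fold changes were -0.30 and -0.37 (SE 0.15 and 0.15), with edgeR adjusted p of 0.561 and 0.485. Regulators of mitochondrial gene expression were negative in 4 of 14 (median 0.18). Of the 14, 1 had all Bmal1KO libraries below Bmal1WT and 1 all above. Tfb2m, the one below, had -0.50 (SE 0.33, edgeR adjusted p = 0.657), at 9.97 ± 2.12 and 7.05 ± 1.19 CPM (SD, n = 3). Tfam, which packages and transcribes mitochondrial DNA, was the one above, with 0.27 (SE 0.21, edgeR adjusted p = 0.714). Its lowest Bmal1KO library had 23.6 CPM and its highest Bmal1WT library 23.4 CPM.

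Markers of cell types differed between the same libraries, and in a bulk sample fewer cells of a type and less RNA per cell cannot be told apart. All 16 adipocyte markers had negative estimates (median -0.33). Their mean log2 deviation was -0.20, 0.06 and 0.15 in Bmal1WT and 0.11, -0.71 and -0.95 in Bmal1KO, against 0.06, 0.01 and -0.06 and then -0.09, -0.16 and -0.28 for the core subunits. Bmal1KO replicate 1 was within the Bmal1WT range for adipocyte markers. On the TMM scale it lay just below that range for core subunits, by less than the SD between replicates (0.08). With library totals alone, its core sum lay above that of Bmal1WT replicate 3. For the 29 supernumerary subunits Bmal1KO replicate 1 was within the Bmal1WT range, at -0.07 against 0.10, 0.09 and -0.19 in Bmal1WT. Markers of blood endothelium were negative in 10 of 10 (median -0.59), those of macrophages in 2 of 12 (median 0.42), of T cells in 0 of 10 (median 1.79) and of mesothelium in 0 of 8 (median 0.40). The brown-fat marker Ucp1 was under the filter, and the 4 tested brown or beige markers had a median of -0.02. They were not alike: 3 had negative estimates, down to -0.21, and Cidea had 1.28. Cidea measured 3.52 ± 0.845 and 8.55 ± 0.444 CPM (SD, n = 3) without overlap, as did 7.83% of all genes tested in that direction. The part of these markers in the complex I values was not tested.

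Across the 36 nuclear subunits the estimates tended to be lower for longer transcripts (Spearman rho -0.36, a description over genes that share their libraries), while over 13658 tested genes with an annotated length rho was 0.15. Removing a smooth trend on length and GC content left 31 of the 36 negative, with a median of -0.12. Without both libraries that stood apart, Bmal1WT replicate 1 and Bmal1KO replicate 1, 26 of 36 were negative (median -0.10). With library totals alone as the scale, the median over all genes moved from 0.02 to 0.11 and their negative share from 48% to 38.5%. On that scale 23 of the 36 were negative (median -0.05). The Ndufaf genes then had 1 of 8 negative (median 0.13).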

How the data were processed

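RNA of 6 visceral fat samples was sequenced from oligo(dT)-primed, amplified cDNA cut with the Nextera XT transposase, per the labels' protocols. Such libraries carry neither strand nor molecular identifiers. The deposited values are whole-number read counts for each gene symbol, which the authors made with STAR 2.7.3a on mm10 and featureCounts, per the submitters' processing notes. How multi-mapping reads were handled, which annotation was used and whether strand was considered is not given in the sources used here. Of 55011 symbols, 20494 had no count. A floor of 3 counts corresponded to 0.315 to 0.461 CPM and covers counting error only.

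Groups came from sample titles. The test used edgeR 4.0.16 (R 4.3.3): filterByExpr (13859 genes), library totals recomputed on the kept genes, TMM, robust quasi-likelihood F-test of Bmal1KO against Bmal1WT, Benjamini-Hochberg adjustment over all genes, threshold 0.05. CPM use TMM-scaled totals. The SE is the unshrunken log2 fold change over the square root of F, and intervals use the t quantile of the fit's degrees of freedom. Class medians and sums carry no test. Alternatives used DESeq2 1.42.0, limma 3.58.1 voom, other scalings, filters, a replicate block, a length and GC trend, and libraries left out. The script was tested on simulated data. Lengths (principal transcript), overlaps and start sites came from GENCODE M21, in which all 56 members matched, and promoters from RefSeq (GRCm38.p6).

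The members and lists were chosen with earlier results of these data known. Fold change, SE and adjusted p are given for mt-Nd genes, core subunits, Ndufa4, Ndufa4l2, the 4 supernumerary subunits and 3 Ndufaf genes of smallest p, and up to 2 genes per pathway list. Ndufs5 and Eef1b2, which fall outside this rule, were chosen after their values were seen, and other members are named with levels or estimates. Ndufb1-ps, left out by its symbol, is listed by RefSeq as a synonym of the protein-coding Ndufb1 and had 143 ± 22.4 CPM in Bmal1WT and 159 ± 19.0 CPM in Bmal1KO (SD, n = 3). No sequence is shown for genes on chromosome 18. The values of 1 member are not reported here singly, though counts over classes include it.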

Additional observations from a re-analysis of the deposited data

How the results depend on the processing

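Complex I genes called at an adjusted p under 0.05 numbered 0 under each of 17 other settings and of 2 more chosen after seeing the data, and the smallest adjusted p of the 24 complex I and assembly genes followed was 0.101. The count over all genes was 0 and became 60 with DESeq2 (36 higher), 186 with no filter on low counts (108 higher) and 61 without replicate 1 of both groups (11 higher). It ran from 0 to 156 when 1 library was left out, being 156 without Bmal1KO replicate 1 (46 higher), 6 without Bmal1KO replicate 2 and 1 without Bmal1WT replicate 1. The cause was not tested. The first fit kept library totals over all genes, and recomputing them on the kept genes was chosen after its result was seen: 1300 against 1290 genes had an unadjusted p under 0.05, and 0 passed in both.

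With library totals alone, the core median was -0.050 and their summed log2 ratio -0.076, and for Ndufaf genes these were 0.13 and 0.12. The mitochondrially encoded median ranged from -0.39 (without Bmal1KO replicate 1) to 0.092 (without Bmal1KO replicate 3). Of the 24 genes, 18 kept their sign throughout. With library totals alone mt-Nd2 turned to 0.021, Ndufv2 to 0.011 and Ndufa4 to 0.045. With 1 library left out, the ranges were -0.45 to 0.092 for mt-Nd2, -0.18 to 0.019 for Ndufv2, -0.17 to 0.062 for Ndufa4, -0.24 to 0.28 for mt-Nd5 and -0.32 to 0.20 for mt-Nd6. Without replicate 1 of both groups mt-Nd5 was -0.34 and mt-Nd6 -0.31. mt-Nd6 was also -0.12 with voom, -0.0059 with no filter and -0.076 with the length and GC trend removed. Ndufs5 was -0.30 with its pseudogene added.

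The labels do not say that replicate numbers mark a shared litter, cage or day, so the numbers were not taken as pairs. Same-numbered samples deviated with correlations of -0.07, 0.09 and -0.03, which in so few libraries cannot exclude pairing. With the replicate number as a block, 0 genes passed, the class medians were -0.15 (core), -0.12 (supernumerary), 0.03 (Ndufaf) and -0.14 (mitochondrially encoded), and mt-Nd6 turned to -0.034, or to -0.11 with the length and GC trend removed as well.

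Foxp3, mt-Nd3, mt-Nd4l and 3 copies of subunit genes had too few counts in these libraries for the test. With 3 libraries a group, an exact permutation test of a single value cannot go below 0.1.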
